A study of Selaginella moellendorffii with 8 samples.

Results

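The 78 gene models described here had high and even levels in both leafy organs of the lycophyte Selaginella moellendorffii, the shoot tip and the microphyll, and low levels in its leafless axes, the root and the rhizophore. They were selected on the deposited counts themselves, scaled to library size as CPM with TMM factors, which correct for a few abundant models filling a library. These factors were 0.634 to 0.822 in the leafy libraries and 1.24 to 1.74 in the leafless ones, and with CPM by library total alone 25 models, all of them among the 78, passed the same rule. A model was kept if all 4 shoot and leaf libraries stood at 10 CPM or more and within 4-fold of each other, and if the lowest of them was at least 8 times the highest of the 4 root and rhizophore libraries after 0.5 CPM had been added to that highest value. Of 25004 models, 8507 met the level, 8471 of these were also even, and 78 met all conditions. The list was to end at rank 200, a length it did not reach. Because the rule used all 8 libraries, the difference between leafy and leafless organs is how the members were chosen, and it is described below without a test.

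Shoot tissue was the outermost part of green young shoots that were 10 to 20 days past branching and already bore microphylls, so it held leaf tissue too. Leaf tissue was whole microphylls of 10 to 14 days. Roots were outgrowths of the ventral angle meristem aged 10 to 20 days and 5 to 10 cm in length that had formed cap and hairs, and rhizophores were younger outgrowths of the same meristem, 4 to 7 days old and 2.5 to 3.5 cm long, without cap, hairs, microphylls or green colour. All came from untreated cuttings, and every library pooled 40 excised tissues. Each organ had 2 libraries, which the labels name as biological repeats. Nothing in the labels ties a repeat to separate plants. The p-values therefore measure how these libraries spread, which may be partly technical. Organ and age cannot be told apart where rhizophore and root are compared.

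Total counts ran from 2826533 in leaf replicate 1 to 27891111 in root replicate 2, and no library listed a count from 1 to 4, so that a listed 0 may hide up to 4 reads. The smallest listed count, 5, was worth 2.15 CPM in leaf replicate 1 and 0.103 to 0.519 CPM in the other 7 libraries. The library labelled rhizophore replicate 2 is placed differently by the deposited tables. In the authors' deposited averages the Root value was matched by weights of 24.9% and 25.5% for the root libraries and 49.6% for rhizophore replicate 2, and the Rhizophore value by rhizophore replicate 1 at 99.2%. The label is kept here, and the counts of models called between rhizophore and root are also given without this library and with it counted as root.

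Microphylls are the small leaves of lycophytes, with a single vein, and arose separately from the leaves of ferns and seed plants. Green tissue of land plants spends much of its RNA on photosynthesis: proteins that bind chlorophyll, the photosystems, the enzymes that fix carbon, and the upkeep of the chloroplast. Some of these genes lie in the nucleus and others in the chloroplast's own genome. Rhizophores are axes peculiar to Selaginella and its fossil relatives, which grow down from branch points and bear roots. Whether any member has such a role cannot be read from these data: 0 of the 78 names, and 0 of all 25004, matched the RefSeq gene table of the species, so the members go by the names the files give them and no function is attached to any.

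The members filled much of the RNA of the leafy organs. Together they took 26.6% and 27.5% of the counts in the shoot libraries and 27.5% and 27.4% in the leaf libraries. They took 2.98% and 2.27% in root, and 0.626% and 0.407% in the rhizophore libraries. The organ means were 27.0% ± 0.640 for shoot, 27.4% ± 0.0565 for leaf, 2.63% ± 0.499 for root and 0.516% ± 0.155 for rhizophore (SD, n = 2). The 95% Wilson intervals, which cover counting error only, reached no farther than from 27.4282% to 27.5323% in the shallowest library, leaf replicate 1. Most of this came from few models: without the 10 with the highest CPM the shares were 6.26% in shoot, 6.26% in leaf, 0.677% in root and 0.0983% in rhizophore. In bulk tissue, fewer cells that make a transcript and less of it per cell cannot be told apart.

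**Figure D1:**
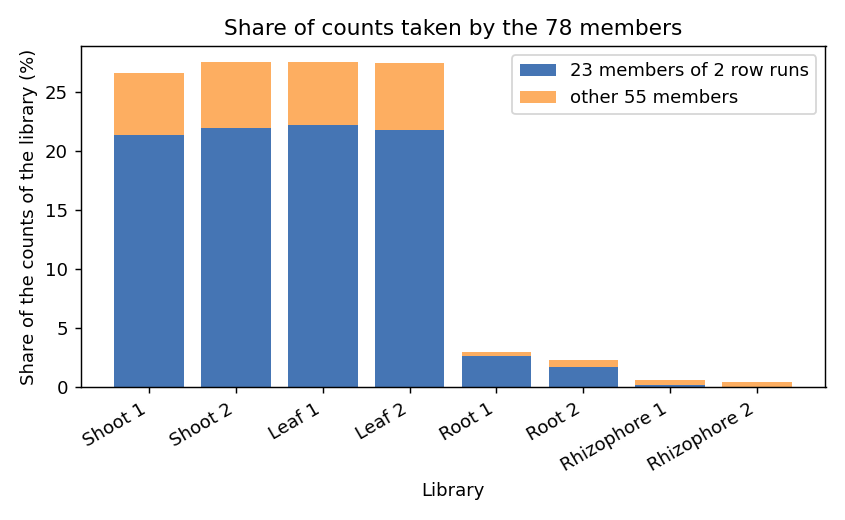
Share of each library's counts (%, linear axis) taken by the 78 members in the 8 libraries, split into the 23 members that lie in 2 runs of rows of the deposited table (lower part of each bar) and the other 55. The 4 shoot and leaf bars reach 26.6% to 27.5%, and no root or rhizophore bar exceeds 2.98%.

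The members differed widely in level. The mean over the 4 shoot and leaf libraries ran from 11.7 to 92628 CPM, with a median of 491 CPM. It was at least 1000 CPM in 28 members, from 100 to 1000 CPM in 36 and under 100 CPM in 14. CPM is not divided by transcript length, which the files do not give, so these values rank models by their share of reads and not by their number of transcripts. Of the 10 models with the highest mean in shoot and leaf 7 were members, and of the 50 highest, 23 were.

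The member with the highest mean, 139170.v1, stood at 103734 and 105303 CPM in shoot and 73359 and 88115 CPM in leaf. It stood at 7265 and 2685 CPM in root, and at 233 and 37.2 CPM in rhizophore. Each leafless library lay at least 10-fold under each leafy one, and the 4 leafless libraries spread widely among themselves. The next, 137689.v1, was at 84241 and 86237 CPM in shoot and 68239 and 79032 CPM in leaf. Its root levels were 724 and 491 CPM and its rhizophore levels 23.9 and 0 CPM. The model with the highest mean of all, 236852.v1, was no member: its lowest leafy library was 4.47 times its highest leafless one after 0.5 was added.

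The rank, which set the lowest leafy library plus 1 over the highest leafless library plus 1, ran from 6.48 to 117 with a median of 12.0, and 19 members reached 20. The 2 leading members were abundant in leafy organs and low in every leafless library. The model 442193.v1 was at 6422 and 9095 CPM in shoot and 2582 and 4839 CPM in leaf. In the leafless organs it was at 8.22 and 13.5 CPM in root and 17.3 and 21.1 CPM in rhizophore. The model 446260.v1 was at 2240 and 2506 CPM in shoot and 1868 and 2577 CPM in leaf, and at 10.8 and 15.6 CPM in root and 16.8 and 7.19 CPM in rhizophore. Neither was listed at 0 in any library. For both, root and rhizophore lay close together beside the gap to the leafy organs. The last by rank, 432583.v1, stood at 11.7 and 11.2 CPM in shoot and 11.6 and 12.2 CPM in leaf, against 0.888 and 0.846 CPM in root and 0.883 and 0 CPM in rhizophore. Before it came 411485.v1, at 36.1 and 31.7 CPM in shoot, 23.7 and 38.6 CPM in leaf, 2.36 and 2.13 CPM in root, and 2.41 and 0.907 CPM in rhizophore. In members as low as these the value added before ranking weighs on the order.

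**Figure D2:**
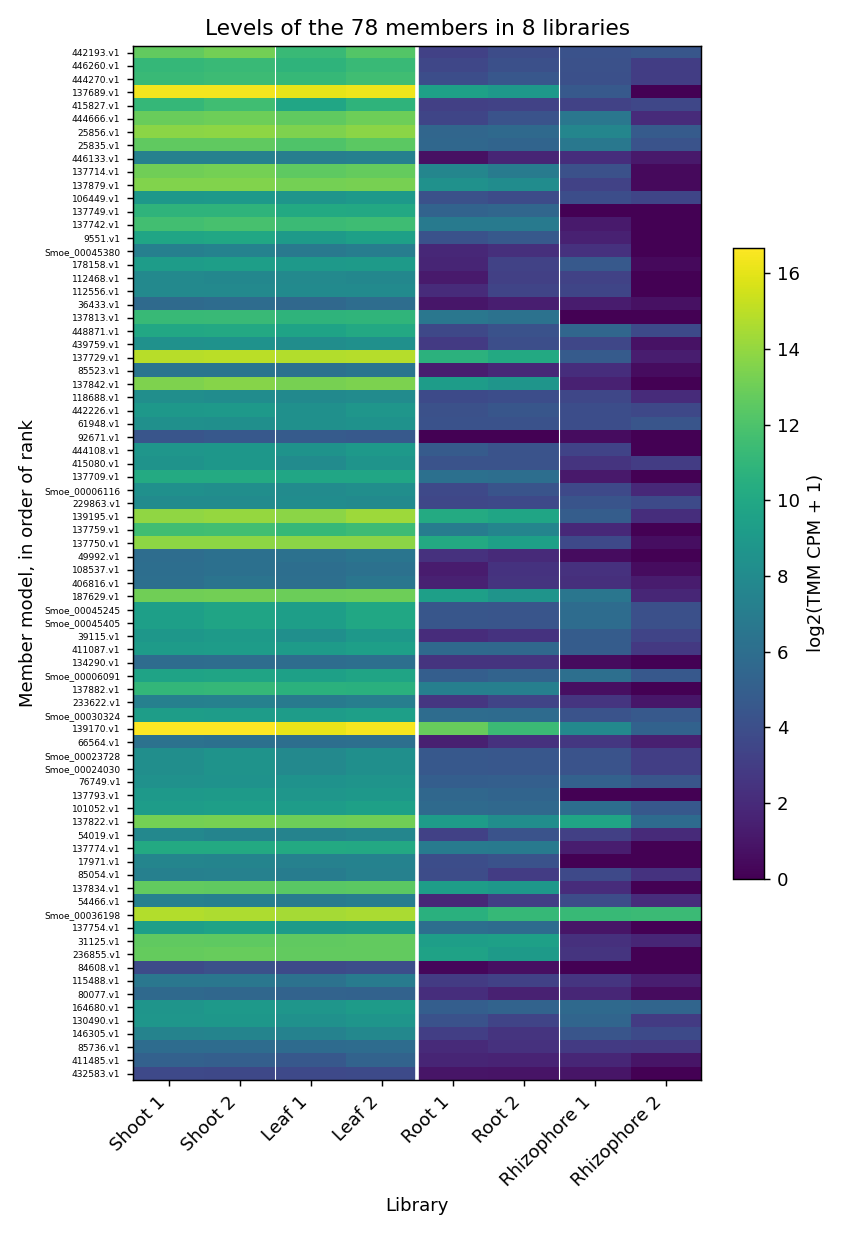
Levels of the 78 members, in order of rank from the top, in the 8 libraries; colour gives log2 of TMM-scaled CPM plus 1. The 4 shoot and leaf columns on the left look alike for each member, while the rhizophore columns hold a scatter of members at or near 0, with 5 of the 78 listed at 0 in rhizophore 1 and 24 in rhizophore 2.

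The thresholds drew a line through a gradual fall. Of the 8471 models even in the leafy organs, 6090 had their lowest leafy library under the highest leafless one plus 0.5, 1573 were 1 to 2 times above it, 574 were 2 to 4 times, 156 were 4 to 8 times, 50 were 8 to 16 times, 19 were 16 to 32 times and 9 were 32 times or more above. Just inside stood 130490.v1 at 8.03 times and 164680.v1 at 8.04 times, and just outside 447018.v1 at 7.97 times and Smoe_00055035 at 7.89 times. On evenness the members nearest the limit were 442193.v1, whose leafy libraries differed by up to 3.52-fold, and 415827.v1, at 3.22-fold. Only 5 models failed on evenness alone, the nearest being 425542.v1 at 6.06-fold, higher in leaf than in shoot, and 1 failed on level alone, 8977.v1, whose lowest leafy library was at 6.33 CPM. The same rule turned round, with root and rhizophore as the high organs, kept 1 model of the 4836 that met its level and evenness conditions.

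**Figure D3:**
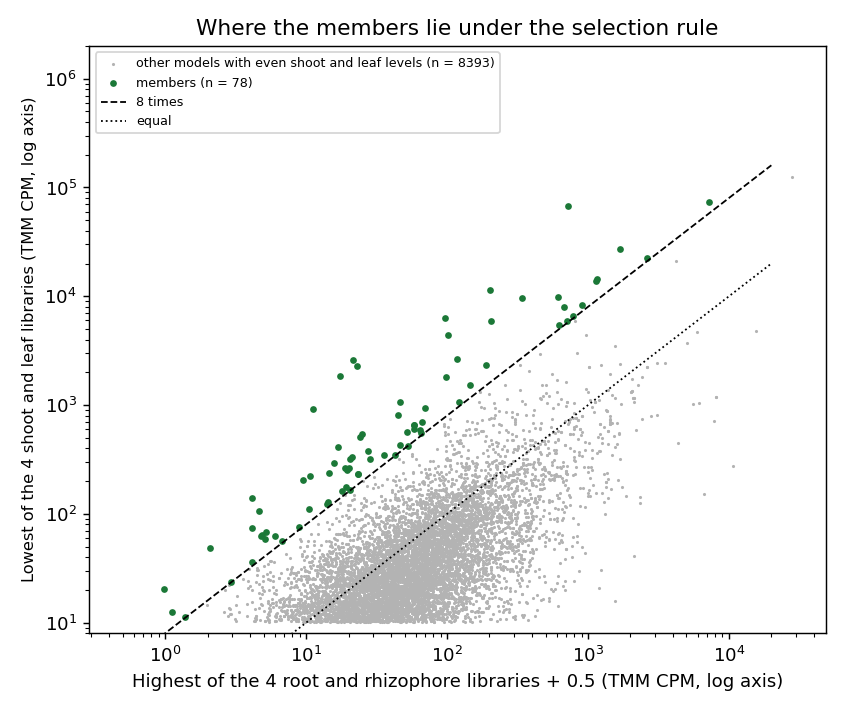
Lowest of the 4 shoot and leaf libraries against the highest of the 4 root and rhizophore libraries plus 0.5 (TMM CPM, both axes logarithmic) for the 8471 models even in the leafy organs. The 78 members lie on or above the dashed line at 8 times, and the bulk of the other 8393 lies under the dotted line of equality, as 6090 of the 8471 do.

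Between leaf and shoot the members differed little. Within the 4-fold limit that the rule set, the highest and lowest leafy libraries differed by 1.29-fold in the median member, and by under 1.5-fold in 65 of 78. The median was close to this, at 1.31-fold, in the 8393 other models even in the leafy organs. The 2 shoot libraries differed by 1.06-fold in the median member and the 2 leaf libraries by 1.14-fold. Leaf over shoot was 0.894 in the median member, with 59 of 78 lower in leaf, and ran from 0.478 to 1.23. In 40 members (51.3%) both leaf libraries lay below both shoot libraries, and in 5 (6.41%) both lay above. The same held for 26.9% and 10.7% of the 8393 other models even in the leafy organs. Leaf replicate 1, the shallowest library, was the lower of the leaf libraries in 71 of 78 members. Its lowest member count was 27, so counting error alone was considerable for the lowest members there.

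No member was called between leaf and shoot, a comparison whose differences the rule had bounded by keeping the 4 libraries within 4-fold, so the count describes the selection as well. edgeR's quasi-likelihood test, fitted on 23662 models in all 8 libraries, called 3 models in that comparison at an adjusted p under 0.05, 0.0127% of those tested, and 0 of the 78 members. At an unadjusted p under 0.05 it counted 0 members and 727 models, and DESeq2's test also called 0 members, against 0.260% of all models. A fit on the 4 leaf and shoot libraries alone called 5 members and 126 of 17122 models, which is 0.736%. The 5 were all lower in leaf: 137714.v1, 137749.v1, 9551.v1, 137813.v1 and 139170.v1. Leaving out rhizophore replicate 1 or rhizophore replicate 2 called 1 member each time, 442193.v1, against 0.603% and 0.518% of all models.

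The members at the ends of the range show the size of these differences. The lowest leaf over shoot ratios were 0.478 for 442193.v1 and 0.531 for 415827.v1, which was at 2188 and 2982 CPM in shoot and 927 and 1816 CPM in leaf. For both, shoot replicate 1 and leaf replicate 2 lay closer to each other than the leaf libraries did as a ratio. The highest were 1.23 for 49992.v1, at 62.3 and 69.1 CPM in shoot and 72.3 and 88.9 CPM in leaf, and 1.19 for 92671.v1, at 20.2 and 23.2 CPM in shoot and 27.1 and 24.6 CPM in leaf. In these last both leaf libraries stood above both shoot libraries.

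The leafless organs, where the rule asked only for low levels, divided the members. The median member stood at 18.2 CPM in root and 6.14 CPM in rhizophore, or 4.36% and 1.76% of its shoot level. The median log2 fold change of rhizophore against root was -0.77 over the members and -0.50 over all models tested. Of the 78 members, all of which passed the filter on low counts, 25 (32.1%) were called lower in rhizophore and 3 (3.85%) higher at an edgeR adjusted p under 0.05, against 24.8% and 11.8% of all models tested. Among the 8393 other models even in the leafy organs 17.1% were called lower in rhizophore and 22.9% higher. The rule capped both organs without setting which was higher, but it removed models high in either.

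These calls depended on the libraries of rhizophore and root. Without the library labelled rhizophore replicate 2 the fit called 31 members lower and 16 higher in rhizophore, against 20.6% and 15.4% of all models tested. Without replicate 1 it called 60 members lower and 3 higher, against 22.0% and 16.3% of all models. The 25 were among the lower calls both times. With rhizophore replicate 2 counted as root it called 0 members lower and 1 higher, against 0.316% and 1.24% of all models, and the edgeR adjusted p of the 25 then ran from 0.362 to 0.541. Without root replicate 1 it called 15 members lower and 0 higher, against 3.93% and 2.84% of all models, and without root replicate 2 it called 18 and 0, against 4.91% and 3.20%. With the 4 root and rhizophore libraries alone it called 16 lower and 1 higher, against 23.2% and 6.40%. The rhizophore libraries stood apart: replicate 2 was below replicate 1 in 67 of 78 members and above it in 6, whereas the same comparison over the 8393 other models gave 4415 below and 3932 above. Replicate 2 was below both root libraries in 65 of the 78 members, 3445 of the 8393 other models and 14264 of all 25004. Replicate 1 was above both in 29 members, 4070 of the 8393 and 7785 of the 25004.

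The order of rows in the deposited count table also divided the members. This was noticed after the values had been seen, and the sources used here do not say what sets the order of rows. Rows 7628 to 7681 held 20 members, with no more than 20 rows between neighbours, and the last 26 rows of the table, from row 24979, held 3. Of these 23 members 19 (82.6%) were called lower in rhizophore and 0 higher, against 24.8% and 11.8% of all models tested. Of the 55 outside these runs 6 (10.9%) were called lower and 3 (5.45%) higher. The runs set apart were the longest and the last, and the 55 include members of other runs with the same gap. Among those were rows 16830 to 16835 and rows 21089 to 21106, with 3 members each, none of them called lower or higher. The contrast depended on the rhizophore library used. Without rhizophore replicate 2 the fit called 22 of the 23 and 9 of the 55 lower, without replicate 1 it called 23 and 37, and with replicate 2 counted as root 0 of either. The median of the 23 was 311 CPM in root and 1.69 CPM in rhizophore, 5.03% and 0.0447% of the shoot level. The median of the 55 was 11.2 CPM in root and 8.47 CPM in rhizophore, 4.14% and 2.70% of the shoot level. The members inside and outside the runs were thus near each other in root as a share of shoot, and far apart in the rhizophore mean. The rule capped root and rhizophore against the leafy libraries for every member, so the likeness in root describes the selection. The choice of the 2 runs used the same values, so the contrast is a description.

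Among the members of the longest run, 137813.v1 was at 2420 and 2562 CPM in shoot, 1826 and 1902 CPM in leaf, 97.6 and 77.1 CPM in root, and was listed at 0 in both rhizophore libraries. Against a floor of 5 counts per library its root mean was at least 241-fold the rhizophore mean (adjusted p = 6.7e-05 in edgeR's test). The model 137793.v1 was at 520 and 545 CPM in shoot, 432 and 478 CPM in leaf, 45.8 and 41.4 CPM in root and listed at 0 throughout rhizophore, a gap of at least 120-fold (adjusted p = 5.0e-05 in edgeR's test). Each of these called models had both root libraries far above both rhizophore libraries. The other member of this run at 0 in both was 137749.v1, at 38.3 and 45.5 CPM in root, a gap of at least 116-fold (adjusted p = 7.4e-05 in edgeR's test). The exception in the run was 137822.v1, at 599 and 292 CPM in root against 910 and 55.4 CPM in rhizophore, where replicate 1 was above both root libraries and replicate 2 below both. With 137689.v1, 137714.v1 and 187629.v1 it made up the 4 members of the run that were not called.

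The run was not made of members alone. Extended from its ends as long as the 4 leafy libraries exceeded the 4 leafless ones and the shoot mean reached 10 CPM, it covered rows 7617 to 7683, which is 67 models, 20 of them members. In 66 of the 67 all 4 leafy libraries were above all 4 leafless ones. The selection rule set this for the members, and the extension set it for the rows outside 7628 to 7681. Of the 34 other models within rows 7628 to 7681, 33 had it. The run ended where this order failed, so the contrast with the rows on either side is partly set by the extension. In 65 of the 67 both rhizophore libraries were below both root libraries. The fit called 58 of the 67 lower in rhizophore, 16 of them members, against 24.8% of all models tested. It called 65 without rhizophore replicate 2, 67 without rhizophore replicate 1, 37 and 40 without root replicates 1 and 2, and 0 when rhizophore replicate 2 was taken as a root library. The 67 models took 29.2% and 29.7% of the counts in the shoot libraries and 29.7% and 28.3% in the leaf libraries. They took 7.50% and 4.42% in root, and 0.338% and 0.0242% in rhizophore. Their median level was 1016 CPM in shoot, 773 CPM in leaf, 163 CPM in root and 1.41 CPM in rhizophore. Root stood at 15.2% of shoot in the median model of the 67 and at 43.8% in the highest, against 4.36% and 11.2% over the members. In the 30 rows before the run the median was 4.60 CPM in shoot and 9.72 CPM in rhizophore, and 6 of the 30 models had all 4 leafy libraries above the leafless ones. In the 30 rows after it 0 had. Both rhizophore libraries were below both root libraries in 14 of the 30 models before the run and 23 of the 30 after it, against 11718 of all 25004. The fit on all libraries called 11 models lower in rhizophore before the run and 18 after it, against 24.8% of all models tested. After the run the median was 2.63 CPM in root and 0 CPM in rhizophore.

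**Figure D4:**
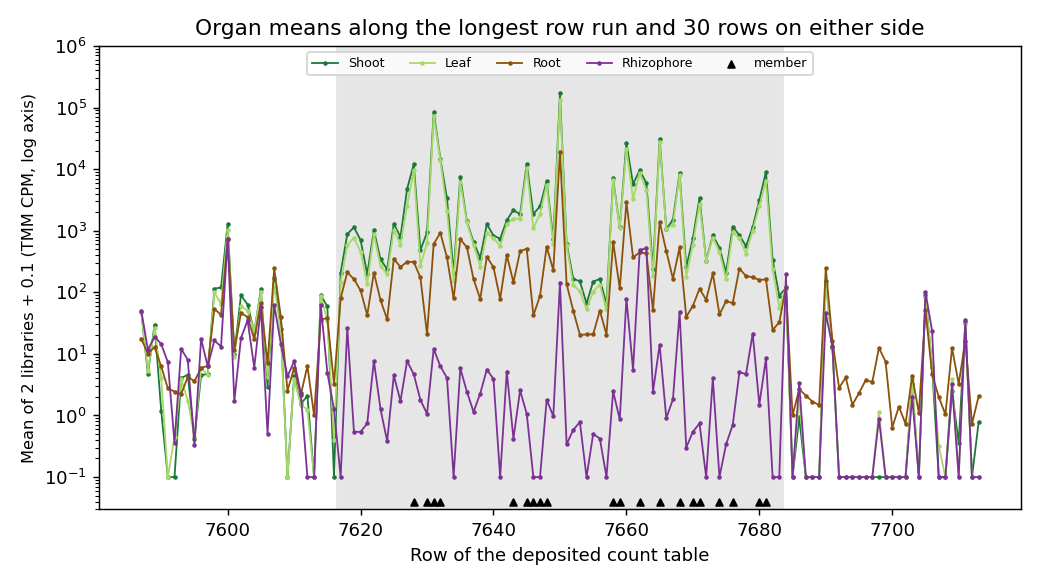
Mean level of each organ (TMM CPM plus 0.1, logarithmic axis, means of 2 libraries) along the deposited order of rows, for the 67 rows of the longest run (shaded) and 30 rows on either side; triangles mark the 20 members. Inside the run shoot and leaf lie together at the top, root below them and rhizophore lowest in nearly every row. In the 30 rows before it the 4 lines mix. In the 30 rows after it root is highest in most, with a median of 2.63 CPM against 0 CPM in each other organ.

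The 26 rows at the end of the table showed the same order of organs. Of their models 23 had all 4 leafy libraries above the leafless ones, as the rule required of the 3 members. All 26 had both rhizophore libraries below both root libraries, and all 26 were called lower in rhizophore, against 24.8% of all models tested. The fit called 25 of them without rhizophore replicate 2 and 0 with it counted as root. They took 8.77% and 8.88% of the counts in shoot, 8.47% and 8.80% in leaf, 1.72% and 1.27% in root, and 0.0385% and 0.00813% in rhizophore. Its members were 139170.v1, 139195.v1 and 31125.v1. The model 31125.v1 was at 6217 and 5912 CPM in shoot, 6304 and 6491 CPM in leaf, 650 and 705 CPM in root, and 4.02 and 2.40 CPM in rhizophore, which put rhizophore against root at -7.72 on the log2 scale, with an SE of 0.59 and an edgeR adjusted p of 0.000115. Root was the highest of all members relative to shoot in this model, at 11.2%. For 139170.v1, with the levels given above, the same difference was -5.20, with an SE of 1.04 and an edgeR adjusted p of 0.00732, and without root replicate 1 that p was 0.0735.

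In the 55 members outside these runs, rhizophore replicate 1 was above both root libraries in 28 and replicate 2 below both in 42. Among the 8393 other models even in the leafy organs these counts were 4070 and 3445, and among all 25004 models 7785 and 14264. Where the 2 rhizophore libraries of a member lay on different sides of root, their mean averages unlike values. The model with the highest rhizophore mean of all members was Smoe_00036198, at 27446 and 25883 CPM in shoot and 22469 and 24219 CPM in leaf. It was at 1556 and 2311 CPM in root and 2438 and 2612 CPM in rhizophore, and it was not called. The model 39115.v1 was at 446 and 548 CPM in shoot, 319 and 484 CPM in leaf, 3.40 and 4.37 CPM in root, and 28.0 and 9.84 CPM in rhizophore. The log2 difference in favour of rhizophore was 2.28, with an SE of 0.50 and an edgeR adjusted p of 0.0118. The model 146305.v1 was at 176 and 187 CPM in shoot, 166 and 217 CPM in leaf, 7.51 and 4.58 CPM in root, and 20.0 and 12.4 CPM in rhizophore, a log2 difference of 1.42 with an SE of 0.38 and an edgeR adjusted p of 0.0271. In both, each rhizophore library was above both root libraries. Without root replicate 1 the edgeR adjusted p was 0.152 for 39115.v1 and 0.0645 for 146305.v1, and without root replicate 2 it was 0.0957 and 0.171. With rhizophore replicate 2 counted as root it was 0.115 and 0.384. The third call, 92671.v1, rested on 6 counts in rhizophore replicate 1, with 0 listed in the other 3 leafless libraries.

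Of the 6 members outside the runs that were called lower in rhizophore, 17971.v1 was at 14.2 and 17.6 CPM in root while no reads were listed in either rhizophore library, a gap of at least 43.9-fold (adjusted p = 7.4e-05 in edgeR's test). Smaller differences were called in models with counts in both rhizophore libraries. The model Smoe_00030324 was at 57.7 and 56.4 CPM in root and 18.3 and 24.4 CPM in rhizophore, a log2 difference of -1.42 with an SE of 0.33 and an edgeR adjusted p of 0.0158. The model 415080.v1 was at 17.9 and 18.4 CPM in root and 4.58 and 6.80 CPM in rhizophore, a log2 difference of -1.67 with an SE of 0.37 and an edgeR adjusted p of 0.0119. The groups did not overlap in either. Their edgeR adjusted p passed 0.05 with a root library left out, at 0.0521 for Smoe_00030324 without replicate 1 and 0.0517 for 415080.v1 without replicate 2. The others were 134290.v1, 49992.v1 and 84608.v1, whose root means were 4.62, 3.65 and 0.411 CPM. Leaving out 1 root library ended the call for 49992.v1 both times and for 84608.v1 without replicate 2. Apart from 139170.v1, 137689.v1, 137822.v1, 49992.v1, 92671.v1 and Smoe_00036198, the models named for their difference between rhizophore and root were chosen after their values had been seen.

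Across the 78 members the levels followed each other closely between the leafy organs and loosely between the leafless ones. Spearman's rho over the 78 was 0.997 between shoot and leaf means, 0.868 between shoot and root, 0.393 between shoot and rhizophore, and 0.267 between root and rhizophore. Between the libraries of an organ it was 0.969 for root and 0.808 for rhizophore. These values are across models, which share libraries and depth and are not independent, and the rule tied the leafy organs together.

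Names and repeated counts were shared by some members. Of the 78, 9 (11.5%) had names starting in Smoe and 69 had numeric names, against 10.9% starting in Smoe among all models and 24.9% among the 8393 other models even in the leafy organs. None of the 23 members in the row runs had a Smoe name. A pair of members, Smoe_00045405 and Smoe_00045245, had identical counts in all 8 libraries, and so had Smoe_00023728 and Smoe_00024030, so each pair may hold the same reads and the list may hold 76 separate signals. No other member had a partner within 0.1 log2 in all 8 libraries.

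The Root average in the authors' deposited table, which draws on rhizophore replicate 2, was below the Rhizophore average in 45 of the 78 members, whereas with the labels kept the root mean was below the rhizophore mean in 23. For 444666.v1, in the authors' deposited table, the averages were 8261 in Shoot, 7511 in Leaf, 9.15 in Root and 98.2 in Rhizophore. Its counts gave 10.1 and 18.2 CPM in root against 96.1 and 3.11 CPM in rhizophore, where the libraries of the rhizophore lay on either side of root.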

How the data were processed

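The authors deposited whole-number read counts per gene model, 1 column per library, and a signal per organ, which is a normalized count averaged over libraries, both so described per the file headers. Per the labels' protocols, amplified cDNA (Nugen Ovation Amp V2 DR) was read in 50 bp single-end runs. Per the submitters' processing notes Bowtie2 and edgeR were used. The sources used here do not give versions, build, annotation, the counting tool, its use of strand, or what became of multiply matching reads, so near-identical models may share counts.

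CPM were scaled with edgeR's TMM factors over all rows, which ran from 0.634 in shoot to 1.74 in root. Tests used edgeR 4.0.16 in R 4.3.3 (filterByExpr, which removed 1342 models, robust quasi-likelihood fit on 8 libraries with a term per organ, Benjamini-Hochberg adjustment over 23662 models), with all organs sharing 1 estimate of spread. DESeq2 1.42.0 was an alternative. It called 30 members lower and 3 higher in rhizophore than in root, against 15.4% and 12.8% of all models. The procedure was also run on simulated data, with an outcome that is not given here. SE is the log2 fold change over the root of its F. Bounds against organs at 0 divide the root mean by the mean CPM of 5 counts per library, the smallest listed value. They cover neither counting error nor the spread between libraries, while the Wilson intervals cover counting error only. Weights of the averages came from a non-negative fit (scipy 1.17.1).

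Members and lists were chosen with earlier results of these data known. The rule was expected to leave 200 members and left 78. With no annotation, lists by product name, markers and sequence features could not be applied, and named members were the 2 at each end of rank and of leaf over shoot ratio and the 2 highest in leafy level, in root and in rhizophore, and others said to be chosen later.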

Additional observations from a re-analysis of the deposited data

How the results depend on the processing

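The number of models passing the rule was 78. It was 25 with CPM by library total, all among the 78, 234 with a 4-fold and 28 with a 16-fold difference, and 67 to 203 when 1 library was left out, the highest without rhizophore replicate 1. Of the 78, 65 to 78 still passed when 1 library was left out, 25 with CPM by library total and 28 with the 16-fold difference. It was 73 with DESeq2 size factors, and 85 with 0.5 added outside the product, a reading tried after seeing the data. Without the 10 members of highest level the shares of counts were 6.26% in shoot, 6.26% in leaf, 0.677% in root and 0.0983% in rhizophore.

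Members called between leaf and shoot numbered 0, but 5 with the 4 libraries alone and 0 to 1 with 1 library left out. Members called lower in rhizophore than in root numbered 25, but 16 with the 4 libraries alone, 0 with rhizophore replicate 2 counted as root and 15 to 60 with 1 library left out, where a lone library is assumed to vary like the other groups. Those called higher numbered 3, but 1, 1 and 0 to 16 in these settings. Outside the row runs 6 were called lower, but 1, 0 and 3 to 37. None of the 28 calls changed sign, though 92671.v1 stood at 0 without rhizophore replicate 1. Whether libraries with the same replicate number share plants or a batch is not known. Deviations correlated by 0.0489 between shoot and leaf and 0.0492 between root and rhizophore. With 2 libraries per organ, such correlations cannot settle this. With a replicate block 24 members were lower and 2 higher in rhizophore, and 0 differed between leaf and shoot. Of all models tested, 7.88% were then called lower and 7.95% higher in rhizophore, against 24.8% and 11.8% without the block. Depth limits the lowest levels most in leaf replicate 1.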
